A study of Mus musculus with 36 samples.

Results

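The genes described here carry long-chain fatty acids into muscle cells and oxidise them in mitochondria. The list held 10 genes (*Cd36*, *Fabp3*, *Cpt1b*, *Cpt2*, *Acadvl*, *Acadl*, *Acadm*, *Hadha*, *Hadhb* and *Acaa2*), and members were found by the gene symbol of the array annotation. The array measured 7 of the 10, each with 1 oligonucleotide printed as a pair of duplicate spots, out of 8129 oligonucleotides in all. *Hadha* and *Hadhb*, the subunits of the trifunctional protein, and the thiolase *Acaa2* were not analysed here.

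RNA came from the quadriceps of BSG mice, which lack beta-sarcoglycan, and of GSG mice, which lack gamma-sarcoglycan, so every animal in the comparison carried a dystrophic genotype. The 9 ages were 1, 2.5 and 4 weeks, then each even week from 6 to 14, and lastly 20 weeks, with 2 mice per age and strain and 36 in all. They were hybridised on 36 two-colour arrays in 4 closed loops of 9 arrays, 2 loops per strain, in which each mouse was paired with the next older mouse and the 20-week mouse with the 1-week mouse. The labels give the ages and strain of each array but no mouse, so a loop was taken as 1 run of array numbers, with 1 mouse per age. WT and MDX mice were not analysed here, so a change with age and a change with the course of the dystrophy cannot be told apart. By the study's account, littermates were used for most ages. The time of day of killing was the same within a strain and age but varied between them, which cannot be told apart from age either. Only the level against the 1-week mouse of the same loop is known. Levels are given as log2 ratios to 1 week, and neither the levels of different genes nor those of the 2 strains at 1 week can be compared. The base and the direction of the deposited ratios were not stated. The direction used here is likely, because *Dlk1*, a gene of newborn muscle, then had 20-week ratios between -3.97 and -2.80 in the 4 loops. In whole muscle, a lower ratio from fewer cells of a type and from less RNA per cell cannot be told apart.

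Long-chain fatty acids enter the muscle fibre with the help of the membrane protein CD36 and are held in the cytosol by the heart-type binding protein FABP3. CPT1 on the outer mitochondrial membrane couples them to carnitine, CPT2 on the inner membrane releases them again, and acyl-CoA dehydrogenases of decreasing chain-length preference then take the first step of each round of beta-oxidation. Slow and oxidative fibres rely on this pathway more than fast glycolytic fibres, and its genes are known targets of the PPAR and ERR nuclear receptors.

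Of the 7 members, *Fabp3* and *Cpt1b* fell between 1 and 20 weeks in the mean of the strains, by 0.94 and 0.71 on the log2 scale, and no member rose. The other 5 members passed no test in either strain or in the mean of the strains. Across all oligonucleotides, 4.10% were called lower and 1.70% higher in this comparison at an adjusted p under 0.05 (limma, Benjamini-Hochberg over 8129). The median of the 7 members was -0.18, against -0.01 over all oligonucleotides, and 5 of 7 members lay below 0, against 51.8% of all oligonucleotides. Both calls were lost when any 1 of the 4 loops was left out.

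**Figure D1:**
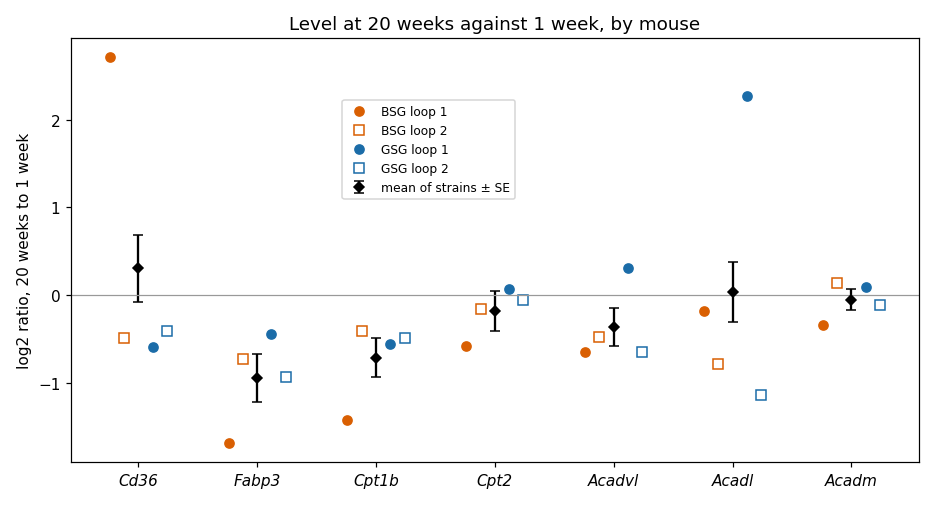
Log2 ratio of 20 weeks to 1 week for the 7 members. Circles and squares are single mice, 1 per loop, and black diamonds are the fitted means of the strains with standard errors. *Fabp3* and *Cpt1b* lie below 0 in 4 of 4 loops, while *Cd36* has 1 mouse at 2.71 and *Acadl* 1 mouse at 2.27.

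The promoter windows of *Fabp3*, the member with the lowest mean at 20 weeks, and of *Cd36*, the member whose loops disagreed most in BSG, are shown with that of *Acadvl*. They come from RefSeq on GRCm38.p6 and run from 250 bases before to 50 bases after the start. Windows were found for 6 of 7 members, and none was found for *Cpt1b*. The *Fabp3* window is chr4:130308488-130308787 on the plus strand, the *Cd36* window chr5:17835847-17836146 on the minus strand and the *Acadvl* window chr11:70015379-70015678 on the minus strand. Capitals mark matches, on either strand, to AGGTCA, the core hexamer bound by nuclear receptors such as the PPARs and ERRs, or to the GC box GGGCGG.
Fabp3: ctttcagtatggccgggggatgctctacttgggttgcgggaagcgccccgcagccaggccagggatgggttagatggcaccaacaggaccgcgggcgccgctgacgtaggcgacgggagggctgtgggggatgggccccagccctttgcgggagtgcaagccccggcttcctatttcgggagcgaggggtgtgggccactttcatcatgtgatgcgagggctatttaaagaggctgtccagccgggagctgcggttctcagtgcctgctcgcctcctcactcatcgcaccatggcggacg
Cd36: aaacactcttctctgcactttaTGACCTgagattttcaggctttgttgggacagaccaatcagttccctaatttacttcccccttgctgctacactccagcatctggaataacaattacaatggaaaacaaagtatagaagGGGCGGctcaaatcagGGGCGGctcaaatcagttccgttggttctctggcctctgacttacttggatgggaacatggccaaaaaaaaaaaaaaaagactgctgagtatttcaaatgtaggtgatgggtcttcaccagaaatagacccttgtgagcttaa
Acadvl: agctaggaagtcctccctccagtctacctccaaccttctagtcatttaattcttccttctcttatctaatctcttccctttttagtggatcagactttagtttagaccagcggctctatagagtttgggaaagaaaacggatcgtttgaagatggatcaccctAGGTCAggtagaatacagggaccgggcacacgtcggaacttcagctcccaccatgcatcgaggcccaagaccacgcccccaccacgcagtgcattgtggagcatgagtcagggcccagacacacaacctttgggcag
The core hexamer was present once in *Cd36*, 228 bases before the start, once in *Acadvl*, 87 bases before the start, and once in *Acadm*, 249 bases before the start. It was present in 16.3% of the 32851 promoter windows of that length. No window of the 6 members held the PPAR element, which joins a pair of hexamers as AGGTCANAGGTCA, or the ERR element TCAAGGTCA, both of which contain the hexamer, and these letters were present in 0.0396% and 0.423% of all windows. GC boxes were present 2 times in *Cd36*, 3 times in *Cpt2* and 4 times in *Acadl*, and 35.7% of all windows held at least 1. The *Fabp3* window held none of these motifs. GC content ran from 43.0% in *Cd36* to 70.3% in *Acadl*, around a median of 52.7% over all windows.

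*Cd36* encodes the fatty acid translocase, which is also carried by capillary endothelium, adipocytes and macrophages. In BSG loop 1 its ratio to 1 week was 0.70 at 2.5 weeks, 1.87 at 4, 2.27 at 6, 1.85 at 8, 1.78 at 10, 2.02 at 12, 1.85 at 14 and 2.71 at 20 weeks. In BSG loop 2 the corresponding ratios were -0.25, -1.46, -1.50, -1.14, -1.08, -0.51, -0.27 and -0.48. The loops of this strain lay on opposite sides of 0 at 8 of 8 ages, with a widest gap of 3.78 at 6 weeks, and all 8 values of a loop share its 1-week mouse. In GSG loop 1 the ratios were -0.89, 0.02, -0.18, 0.77, -0.23, 0.18, -0.05 and -0.59 from 2.5 to 20 weeks. In GSG loop 2 they were -0.61, -0.74, -0.12, -0.58, -0.14, -0.82, -0.50 and -0.40, so that loop was below 1 week at every later age. In BSG the fitted change from 1 to 20 weeks was 1.12 ± 0.54 (SE from array residuals, 2 mice per age). It had a 95% interval of 0.00 to 2.23 and an adjusted p of 0.432. In GSG it was -0.49 ± 0.54, with an interval of -1.61 to 0.62 (adjusted p = 0.805). The strain difference of 1.61 ± 0.77 had an interval of 0.03 to 3.19 and did not pass the test (adjusted p = 0.680). Without BSG loop 1 the BSG value was -0.48 and the mean of the strains -0.49.

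The high *Cd36* ratios of BSG loop 1 were present in both duplicate spots. At 20 weeks the first spot gave 2.69 and the second 2.72, and over the 36 arrays the duplicate spots of *Cd36* correlated at r = 0.95, above 99.1% of oligonucleotides. Several genes that share cell types with *Cd36* were measured in the same mouse. *Fabp4*, the binding protein of adipocytes and capillaries, was 1.68 at 20 weeks in BSG loop 1 and 0.03 in BSG loop 2. Over the later ages it ran from -0.02 to 2.86 in BSG loop 1 and from -0.96 to 0.03 in BSG loop 2. It was above 1 week at 7 of 8 and 1 of 8 ages in those loops, and at 3 of 8 and 1 of 8 in the GSG loops. *Cav1*, which encodes the caveolin of endothelium and fat, was 1.12 and -0.90 at 20 weeks in the BSG loops. It was above 1 week at 8 of 8 ages in BSG loop 1 and at 0 of 8 in each of the other 3 loops. *Adipoq*, the fat cell hormone adiponectin, was 0.89 and 0.46 at 20 weeks. The 5 measured adipocyte markers then had medians of 0.89 and 0.23 in the BSG loops and of -0.01 and 0.04 in the GSG loops. Single markers ran from -0.27 to 1.68 in BSG loop 1, so not all were above 1 week there, and from -0.10 to 0.46 in BSG loop 2. At the earlier ages the adipocyte median of BSG loop 1 lay between -0.28 and 0.37. *Cd36* was at 1.78 or more in that loop from 4 weeks on. At 6, 8 and 10 weeks the adipocyte median was higher in BSG loop 2 (0.49, 0.37 and 0.23) than in BSG loop 1 (0.37, 0.10 and -0.16). The median of the 9 macrophage markers was 0.89 to 1.92 from 6 to 20 weeks in BSG loop 1 and 0.19 to 0.69 in BSG loop 2. In the GSG loops the macrophage median was 0.61 to 1.80 and 0.62 to 1.54 over those ages, and *Cd36* was between -0.82 and 0.77. The endothelial markers *Pecam1* and *Cdh5* were the lowest of the 8 in the 20-week mouse of BSG loop 1, at -0.77 and -1.03. Single endothelial markers ran up to 0.56 in that mouse. At 20 weeks the median of the 8 endothelial markers lay between -0.57 and -0.31 in the 4 loops. The part of these cell types in the *Cd36* result was not tested.

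**Figure D2:**
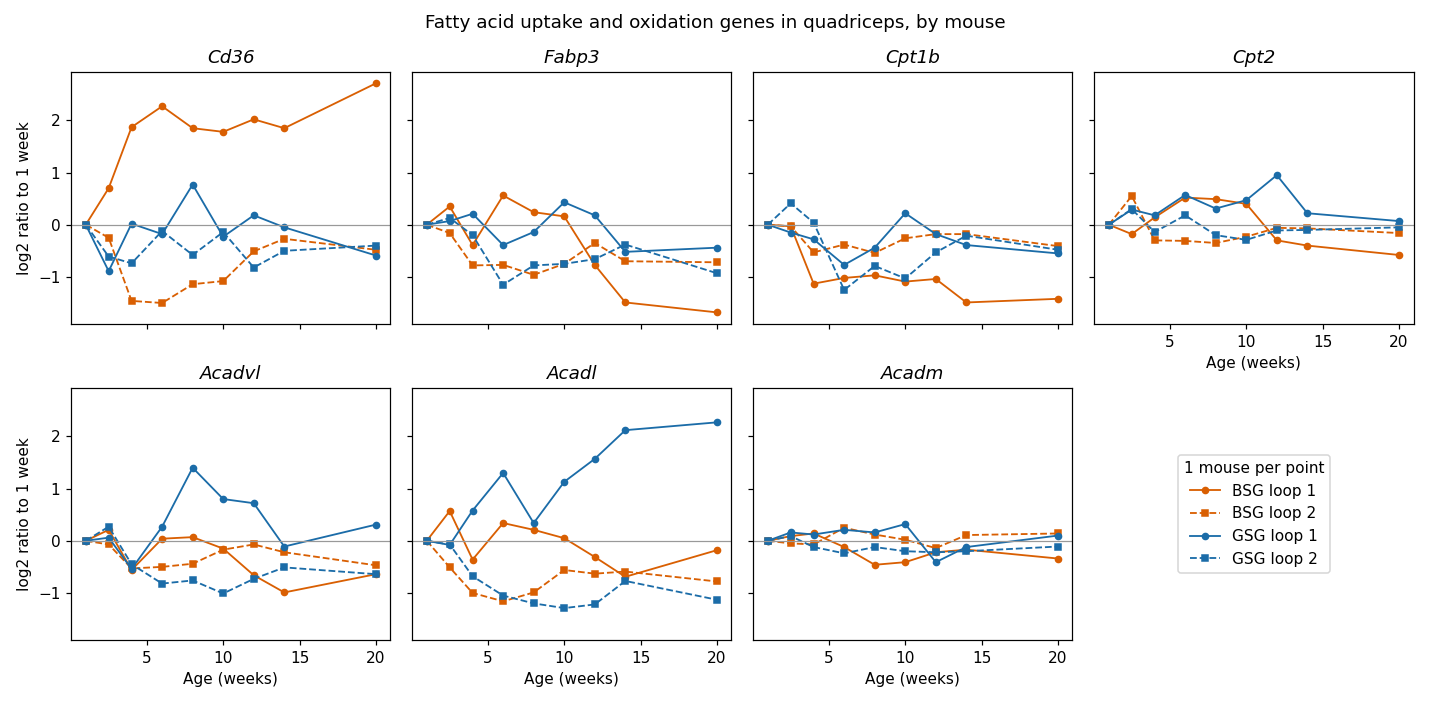
Log2 ratio to the 1-week mouse of the same loop (vertical axis) against age in weeks for the 7 members, 1 line per loop and 1 mouse per point. *Cd36* in BSG loop 1 and *Acadl* in GSG loop 1 leave the other loops, reaching 2.71 and 2.27, while *Acadm* stays between -0.46 and 0.32 in all mice.

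*Fabp3* encodes the cytosolic fatty acid-binding protein of heart and oxidative muscle. In BSG loop 1 its ratios from 2.5 to 20 weeks were 0.35, -0.39, 0.56, 0.24, 0.16, -0.77, -1.49 and -1.68. In BSG loop 2 they were -0.16, -0.78, -0.77, -0.96, -0.75, -0.35, -0.70 and -0.72. Both BSG mice were below 1 week at 4 weeks and at each age from 12 weeks on, whereas at the other 4 ages the loops lay on opposite sides of 0. In GSG loop 1 the ratios were 0.07, 0.21, -0.39, -0.14, 0.43, 0.18, -0.52 and -0.44. In GSG loop 2 they were 0.13, -0.20, -1.15, -0.78, -0.75, -0.66, -0.38 and -0.93. At 20 weeks 4 of 4 mice were below 1 week, and over all later ages 23 of 32 were. The fitted change to 20 weeks was -1.20 ± 0.38 in BSG (SE from array residuals, 2 mice per age), with an interval of -1.98 to -0.41. In GSG it was -0.68 ± 0.38, with an interval of -1.47 to 0.10. Neither passed the test within a strain (adjusted p = 0.138 and 0.447), and 0 of 7 members did by limma, where 1.28% of all oligonucleotides were called in BSG and 3.74% in GSG. At an unadjusted p under 0.05 (n = 36 arrays) 2 of 7 members and 944 oligonucleotides passed in BSG, and 0 members and 1196 oligonucleotides in GSG. In the mean of the strains *Fabp3* fell by 0.94 ± 0.27, or 1.92-fold (interval -1.50 to -0.39, adjusted p = 0.0364). The strain difference of -0.51 ± 0.54 had an interval of -1.62 to 0.60 (adjusted p = 0.895).

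*Cpt1b* encodes the muscle form of carnitine palmitoyltransferase 1, the step at which malonyl-CoA restrains fatty acid entry into mitochondria. In BSG loop 1 its ratios were -0.03, -1.13, -1.02, -0.97, -1.09, -1.04, -1.49 and -1.42 from 2.5 to 20 weeks. In BSG loop 2 they were -0.03, -0.53, -0.38, -0.54, -0.26, -0.18, -0.18 and -0.41. No BSG mouse was above 1 week at any age, and from 4 weeks on all lay at -0.18 or lower. In GSG loop 1 the ratios were -0.15, -0.28, -0.77, -0.44, 0.22, -0.18, -0.39 and -0.55. In GSG loop 2 they were 0.41, 0.04, -1.25, -0.79, -1.03, -0.53, -0.21 and -0.48. In all, 29 of 32 later mice were below 1 week, the most of any member, and at 20 weeks 4 of 4 were. The BSG fit gave a change to 20 weeks of -0.92 ± 0.31 (adjusted p = 0.170), and the GSG fit one of -0.51 ± 0.31 (adjusted p = 0.497). In the mean of the strains *Cpt1b* fell by 0.71 ± 0.22, or 1.64-fold, with an interval of -1.16 to -0.27 and an adjusted p of 0.0495, just inside the threshold. The strain difference of -0.40 ± 0.43 had an interval of -1.29 to 0.49 (adjusted p = 0.895).

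The calls of both genes depended on the loops and the settings. Leaving out 1 loop moved *Fabp3* to between -0.70 without BSG loop 1 and -1.18 without BSG loop 2, and *Cpt1b* to between -0.46 and -0.97 for the same loops, with adjusted p from 0.0548 to 0.542 and from 0.0569 to 0.737. Scaling the arrays to one spread gave -0.64 for *Fabp3* (adjusted p = 0.321) and -0.47 for *Cpt1b* (adjusted p = 0.398). A limma fit to 1 value per animal gave -0.94 for *Fabp3* (adjusted p = 0.113) and -0.71 for *Cpt1b* (adjusted p = 0.0997). Both stayed below 0 in every setting tried.

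*Fabp3* and *Cpt1b* also followed each other across ages. Over the 8 later ages their ratios correlated at r = 0.66 and 0.85 in the BSG loops and at r = 0.84 and 0.92 in the GSG loops, and over the 36 arrays at r = 0.80. The points of a loop share the 1-week mouse, and each mouse enters 2 arrays. The median over the 21 pairs of members was 0.10 across the 36 arrays, and 14 of 21 pairs were above 0. Within loops other pairs also reached such values. *Acadvl* and *Acadl* had r = 0.97 and 0.88 in the BSG loops and r = -0.10 and 0.96 in the GSG loops. Over the arrays *Cd36* had correlations between -0.44, with *Cpt1b*, and -0.02, with *Acadvl*. By loop its signs were mixed, since over the later ages of BSG loop 2 it had r = 0.65 with *Fabp3*, 0.74 with *Cpt1b*, 0.72 with *Cpt2*, 0.67 with *Acadvl* and 0.81 with *Acadl*, and in BSG loop 1 values from -0.84 to -0.08 with the same 5 genes. *Cpt2*, which releases acyl groups from carnitine inside the mitochondrion, had a median ratio of -0.06 over 32 mice and a range of -0.58 to 0.95. At 20 weeks its mice lay at -0.58 and -0.16 in BSG and at 0.07 and -0.05 in GSG. The change of -0.18 ± 0.23 in the mean of the strains had an interval of -0.66 to 0.29 (adjusted p = 0.826).

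Of the acyl-CoA dehydrogenases, *Acadvl* handles very long chains at the inner mitochondrial membrane. Its 20-week ratios were -0.64 and -0.47 in BSG and 0.31 and -0.64 in GSG. The 4 mice overlapped 0, and the mean of the strains was -0.36 ± 0.22 (adjusted p = 0.472). The 4 arrays that set its 4-week against its 2.5-week mice gave log2 ratios, 4 over 2.5 weeks, of -0.51 and -0.31 for BSG mice and -0.75 and -0.48 for GSG mice. The 4 arrays had one sign, but on the GSG array at -0.75 the duplicate spots gave -0.02 and -1.48. The fitted step of -0.63 ± 0.22 had an interval of -1.08 to -0.18 and did not pass the test (adjusted p = 0.504). *Acadm* was also below 0 on 4 of 4 of these arrays, at -0.25 to -0.07, with a fitted step of -0.06 ± 0.12. On those arrays *Cpt1b* had -0.94 and -0.20 for BSG mice, 0.17 and -0.14 for GSG mice, and a fitted step of -0.52 ± 0.22 (adjusted p = 0.631). For this step limma called 0 of 7 members, where 0.0123% of all oligonucleotides were called, and 2 of 7 had an unadjusted p under 0.05 (n = 36 arrays).

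*Acadl*, the long-chain dehydrogenase, was the member whose GSG loops disagreed most. In GSG loop 1 its ratios from 2.5 to 20 weeks were -0.08, 0.58, 1.30, 0.34, 1.13, 1.57, 2.12 and 2.27. In GSG loop 2 they were -0.07, -0.68, -1.05, -1.20, -1.29, -1.22, -0.77 and -1.13. The loops lay on opposite sides of 0 at 7 of 8 ages, with a gap of 3.39 at 20 weeks. In GSG loop 1 the first of the duplicate spots stayed between -1.52 and 0.12, while the second ran from 0.10 to 4.41. On the array that set the 1-week against the 20-week mouse of that loop, the spots gave -0.52 and -4.91, 1 over 20 weeks. Averaged and taken as 20 over 1 week, that array gave 2.71, while the other arrays of the loop summed to -1.32. The fit spreads this gap over all arrays of the loop, so the rise is not a separate reading at each age. At 20 weeks the first spot gave 0.12 and the second 4.41, and at 12 weeks they gave -0.82 and 3.96. In BSG the ratios at 20 weeks were -0.18 and -0.78. The change from 1 to 20 weeks was -0.48 ± 0.48 for BSG and 0.57 ± 0.48 for GSG mice (adjusted p = 0.873 and 0.701), and without GSG loop 1 the latter was -1.13 (adjusted p = 0.177). The strain difference of -1.05 ± 0.68 had an interval of -2.46 to 0.36 (adjusted p = 0.840).

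**Figure D3:**
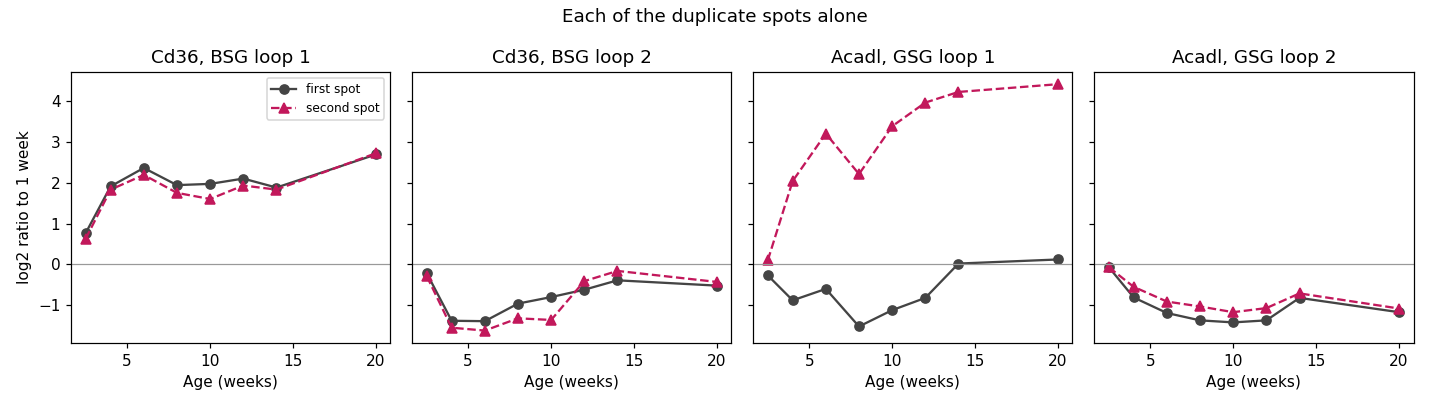
Log2 ratio to 1 week (vertical axis) against age in weeks, computed from the first and from the second duplicate spot alone, for *Cd36* in the BSG loops and *Acadl* in the GSG loops. The spots of *Cd36* overlie each other at 20 weeks in BSG loop 1 (2.69 and 2.72), while those of *Acadl* in GSG loop 1 lie at 0.12 and 4.41.

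The duplicate spots of *Acadvl* also parted in GSG loop 1, with 2.82 from the first and -1.38 from the second at 12 weeks, and correlated at r = 0.14 over the 36 arrays. The corresponding values were 0.91 for *Fabp3*, 0.82 for *Cpt1b*, 0.78 for *Cpt2*, 0.50 for *Acadl* and 0.26 for *Acadm*, against a median of 0.32 over all oligonucleotides. By array, the duplicate spots of all oligonucleotides had a median correlation of 0.316 in BSG loop 1 and 0.364 in GSG loop 1, against 0.583 and 0.645 in the second loops. In the second loops *Acadl* was below 1 week in both strains at 20 weeks, at -0.78 and -1.13. *Acadm*, the medium-chain dehydrogenase, varied least, with 32 ratios between -0.46 and 0.32 and a median of -0.09. Its change from 1 to 20 weeks was -0.05 ± 0.12 in the mean of the strains, and the interval of -0.30 to 0.20 was the narrowest of the members (adjusted p = 0.924).

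The loops also showed how far the arrays closed on themselves. The 9 log ratios of a loop would sum to 0 without array error or a dye effect, since every mouse is used once in each dye. For *Fabp3* they summed to 2.25, 2.99, 2.71 and 4.24 in the 4 loops, and the mean of 3.05 was larger in size than that of 97.3% of oligonucleotides. For *Cpt1b* the mean sum was 2.24, for *Cpt2* 2.76 and for *Cd36* 2.21, each above 0 in 4 of 4 loops, whereas *Acadm* had -0.82, below 0 in 4 of 4, and the median size over all oligonucleotides was 0.78. For *Acadl* the sums were 1.66 and 0.68 in the BSG loops and -4.03 and 2.04 in the GSG loops. The array that set the 20-week against the 1-week mouse directly gave -1.93 and -1.05 in BSG and -0.74 and -1.40 in GSG for *Fabp3*. The chain of the 8 other arrays gave 0.32 and 1.94 for those BSG mice and 1.97 and 2.84 for those GSG mice, so the routes differed in sign in 4 of 4 loops. *Cpt1b* had direct values of -1.59, -0.71, -0.85 and -0.71 and chain values of -0.11, 1.97, 1.87 and 1.38. The fit spreads the sum evenly over the 9 arrays of a loop. Its 20-week values therefore lie near the direct arrays, at -1.68 and -0.72 in BSG and -0.44 and -0.93 in GSG for *Fabp3*. A fit with a dye term common to all arrays gave the same estimates for both genes, as it must in closed loops. With that term *Fabp3* passed the test in BSG alone (adjusted p = 0.0130), as did *Cpt1b* (adjusted p = 0.0293). Of all oligonucleotides, 236 were then called in BSG, against 104 without the term.

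**Figure D4:**
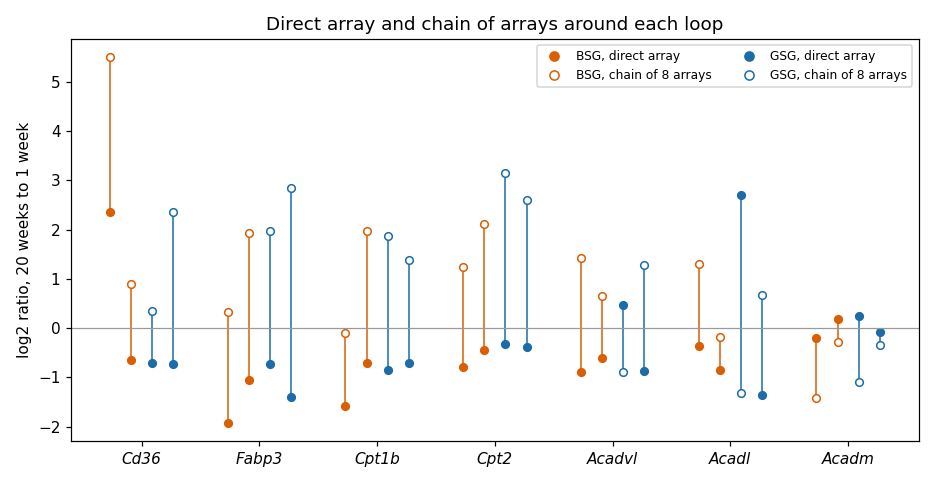
Log2 ratio of 20 weeks to 1 week for the 7 members, from the array that compares those mice directly (filled) and from the sum over the 8 other arrays of the loop (open), 1 line per loop. For *Fabp3* the direct arrays lie between -1.93 and -0.74 and the chains between 0.32 and 2.84.

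The members were also set against the other time contrasts. In the mean of the 8 later ages against 1 week, limma called 0 of 7 members and 1.62% of all oligonucleotides, and *Cpt1b* had -0.53 ± 0.22 (adjusted p = 0.337). The F test over the 8 later ages called 0 of 7 and 1.60% of all. In each of these tests 1 member, *Cpt1b*, was at an unadjusted p under 0.05 (n = 36 arrays). The contrast of 6 and 8 weeks with 4 and 10 weeks called 0 of 7 members and 0% of all oligonucleotides in either strain, and at an unadjusted p under 0.05 (n = 36 arrays) limma gave 0 members and 198 oligonucleotides in BSG and 1 member and 282 oligonucleotides in GSG. The lowest member was *Cpt1b* in GSG with -0.55 ± 0.23 (adjusted p = 1.00). In GSG loop 2 *Cpt1b* was 0.04 at 4 weeks, -1.25 at 6 and -0.79 at 8, but it stayed at -1.03 at 10 weeks. The strains' changes from 1 week to 20 weeks differed past the threshold for 0 of 7 members and 0% of all oligonucleotides by limma. At an unadjusted p under 0.05 (n = 36 arrays) that difference passed for 1 member and 586 oligonucleotides. The temporal Hotelling test, which compares quadratic curves of the strains, also called 0 of 7 and 0% of all, and 0 members and 358 oligonucleotides were at an unadjusted p under 0.05 (n = 36 arrays). *Cd36* had the highest rank of the members in it (adjusted p = 1.00), with quadratic coefficients of 0.021 for BSG and -0.045 for GSG, and *Cpt1b* had nearly equal coefficients of 0.028 and 0.029. The study lists genes under 0.05 in its own temporal test of these strains. In the Hotelling test here the smallest adjusted p of any oligonucleotide was 0.121. The cause of this difference was not tested.

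Other genes of fat oxidation were described from lists. Of the 9 measured genes of the carnitine shuttle and its control, 1 fell and 0 rose between 1 and 20 weeks in the mean of the strains. It was *Mlycd*, which encodes the decarboxylase that removes malonyl-CoA, with -1.19 and -0.28 in the BSG loops, -0.32 and -0.73 in the GSG loops and a change of -0.63 ± 0.16 (adjusted p = 0.0188). *Slc25a20*, the carnitine-acylcarnitine carrier between CPT1 and CPT2, had -0.57 ± 0.21 (adjusted p = 0.136) and was below 1 week in 4 of 4 mice. *Cpt1a*, the liver form of CPT1, had 0.34 ± 0.18 (adjusted p = 0.369). The list had a median of 0.00.

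Of the 6 other measured genes of mitochondrial beta-oxidation, 1 fell, 0 rose and the median was -0.20. *Eci2*, an isomerase for unsaturated fatty acids, fell by 0.71 ± 0.19 (adjusted p = 0.0225), with its 4 mice between -0.80 and -0.58. Its relative *Eci1* had -0.73 ± 0.23 (adjusted p = 0.0612). Of 11 genes of uptake, binding and activation 0 rose and 0 fell, with a median of 0.00. Among 11 peroxisomal genes 1 rose and 0 fell. It was *Abcd2*, a transporter of very long-chain acyl-CoA, with 0.46 ± 0.13 (adjusted p = 0.0355), and its 4 mice lay between -0.03 and 1.24. Of 19 PPAR and ERR regulators and targets 1 fell and 0 rose, with a median of -0.02. It was *Acot1*, an acyl-CoA thioesterase, with -0.32 ± 0.09 (adjusted p = 0.0393). Each of these 4 calls was lost without GSG loop 1, with -0.74 for *Mlycd*, -0.71 for *Eci2*, 0.39 for *Abcd2* and -0.36 for *Acot1*, and without GSG loop 2, with -0.53, -0.71, 0.54 and -0.29. Those of *Mlycd*, *Abcd2* and *Acot1* were also lost without BSG loop 1, with -0.41, 0.24 and -0.23, and all 4 were lost with arrays scaled to one spread.

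For lipid storage and synthesis, 1 of 12 genes rose and 1 fell. *Me1*, the cytosolic malic enzyme that supplies NADPH, rose by 0.96 ± 0.18 (adjusted p = 0.0010) with its 4 mice between 0.79 and 1.25, and *Mgll*, the monoglyceride lipase, fell by 0.47 ± 0.12 (adjusted p = 0.0151). In the citric acid cycle and respiratory chain, 25 of 32 genes were below 0 with a median of -0.23, and 0 passed the test in either direction. The list medians by loop at 20 weeks were -0.47, -0.30, 0.08 and -0.13 in the order BSG loop 1, BSG loop 2, GSG loop 1 and GSG loop 2. Of 23 genes of glycolysis and glycogen 1 rose and 1 fell. *Hk2*, the muscle hexokinase, rose by 0.87 ± 0.23 (adjusted p = 0.0219), and *Fbp2*, the muscle fructose bisphosphatase, fell by 1.40 ± 0.18 (adjusted p = 1.09e-05). The call of *Fbp2* held without each loop, that of *Me1* was lost without BSG loop 1 (0.91), that of *Mgll* without any 1 loop (-0.53 to -0.40), and that of *Hk2* without BSG loop 1 (0.65), GSG loop 1 (0.77) or GSG loop 2 (0.96).

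**Figure D5:**
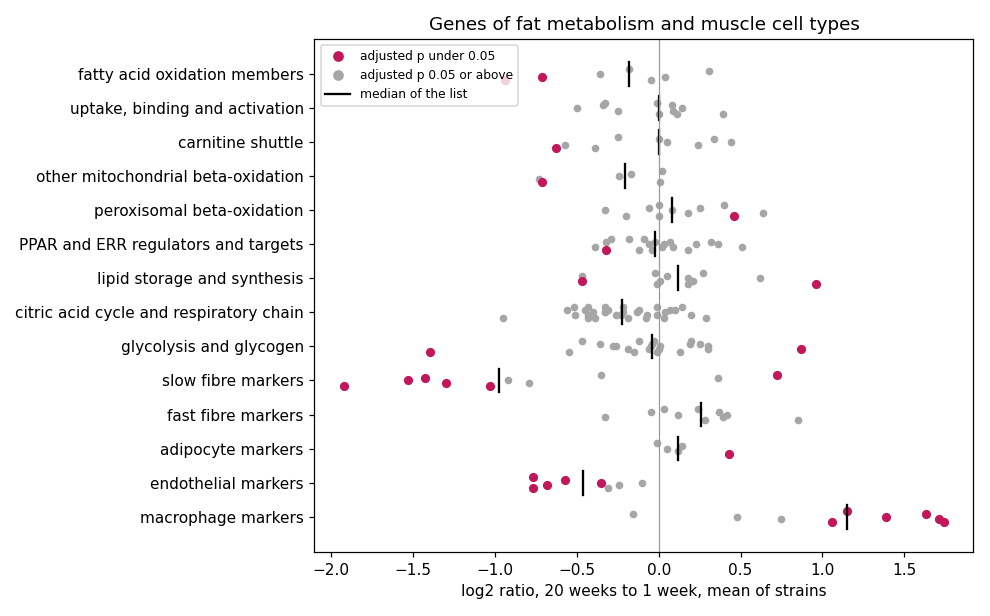
Log2 ratio of 20 weeks to 1 week in the mean of the strains (horizontal axis), 1 point per gene, for the members and for lists of fat metabolism and muscle cell types. Points past an adjusted p of 0.05 are in colour and black bars are list medians, which are -0.18 for the members, -0.98 for slow fibre markers and 1.15 for macrophage markers.

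Markers of fibre and cell types moved in the same comparison. Of 10 slow fibre markers 5 fell and 1 rose, with a median of -0.98 and loop medians of -1.65 and -0.38 in BSG and -0.87 and -1.19 in GSG. For comparison, *Fabp3* had -1.68, -0.72, -0.44 and -0.93 in those loops. *Casq2*, the calsequestrin of heart and slow fibres, fell by 1.92 ± 0.23 (adjusted p = 5.22e-06), and the sarcomere genes *Actn2*, *Myoz2* and *Tnnt1*, the slow troponin T, had -1.30, -1.53 and -1.43, while *Mb*, the oxygen store myoglobin, had 0.36 ± 0.17 (adjusted p = 0.294). Of 10 fast fibre markers 0 passed, with a median of 0.26. Of 8 endothelial markers 5 fell, with a median of -0.46, and *Ptprb*, the endothelial receptor phosphatase, fell by 0.77 ± 0.16 (adjusted p = 0.00291). *Cdh5*, the cadherin of vessel walls, fell by 0.68 ± 0.15 (adjusted p = 0.00456), and the receptors *Tie1* and *Kdr* had -0.35 and -0.57. Of 9 macrophage markers 6 rose, with a median of 1.15, led by *Cd74* with 1.74 ± 0.23 (adjusted p = 2.29e-05) and followed by *Mpeg1*, *Ctss* and *Lgals3* with 1.71, 1.39 and 1.63. Of 5 adipocyte markers 1 rose, *Adipoq* by 0.43 ± 0.13 (adjusted p = 0.0440). Of 4 erythroid markers 1 fell, *Alas2*, which encodes the first enzyme of haem synthesis in red cells, by 0.83 ± 0.16 (adjusted p = 0.00119). The *Casq2* and *Cd74* calls held without each loop. Those of *Actn2* (-0.99), *Myoz2* (-1.45) and *Mpeg1* (1.44) were lost without BSG loop 1, and those of *Tnnt1* (-1.06 and -1.16) and *Ctss* (1.11 and 1.22) without BSG loop 1 or GSG loop 2. *Lgals3* lost its call without either BSG loop (1.52 and 1.74), *Ptprb* without BSG loop 2 (-0.65) or GSG loop 2 (-0.66), *Tie1* without any loop but GSG loop 1 (-0.41 to -0.28) and *Kdr* without any 1 loop (-0.65 to -0.49). *Cdh5* lost it without BSG loop 1 (-0.50) or GSG loop 2 (-0.57), *Adipoq* without any 1 loop (0.32 to 0.53) and *Alas2* without GSG loop 2 (-0.78). With arrays scaled to one spread, 3 slow fibre and 1 endothelial marker fell and 2 macrophage markers rose. Of 11 genes of newborn muscle 7 fell, with a median of -2.03, led by *Dlk1* and the imprinted genes *Ndn*, *Meg3* and *Mest*, with -2.26, -2.40 and -2.27, and these 4 calls held without each loop. The part of fibre type, cell type and maturation in the *Fabp3* and *Cpt1b* changes was not tested.

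The genes whose pattern was most like the mean of the members were found by correlating the 16 fitted values (8 later ages in each strain) of 1150 candidate oligonucleotides with that mean. *Lynx1* had the highest r of 0.89, followed by *Cox6a2*, the muscle form of a cytochrome c oxidase subunit, at 0.83 and *Phb2*, a prohibitin, at 0.82. *Itm2a* had 0.81, *Ech1*, a peroxisomal and mitochondrial dienoyl-CoA isomerase, 0.79, *Cox7a1*, a further muscle subunit of cytochrome c oxidase, 0.76 and *Cdkn1c*, a cell cycle inhibitor, 0.75. *Idh3g* and *Sdhb*, of the citric acid cycle, and *Rab3a* followed at 0.74, 0.73 and 0.72. These points share arrays and 1-week mice. Of these 10 genes, *Itm2a* and *Cdkn1c* passed the test at 20 weeks against 1 week, falling by 1.85 ± 0.37 (adjusted p = 0.00259) and by 2.03 ± 0.28 (adjusted p = 4.71e-05). The *Itm2a* call was lost without GSG loop 1 (-1.76) or GSG loop 2 (-1.94). *Ech1* had -0.75 ± 0.24 (adjusted p = 0.0690), with -1.17 in BSG and -0.32 in GSG.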

How the data were processed

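Two-colour arrays of amplified quadriceps RNA carried a 65-mer library printed in duplicate. The labels name GenePix, and per the study's methods the authors normalised them with the smida function all.norm for position, dye and array, and deposited channel log ratios, used here as log2. Every array has the later age in Cy5, except the closing array of each loop, which has the 1-week mouse in Cy5. The number of arrays limits the precision.

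The 16416 spots were averaged in pairs to 8129 oligonucleotides, with all *Gapdh* control pairs averaged to 1. Symbols came from the platform annotation. One limma model (R 4.3.3, limma 3.58.1) with 16 age coefficients was fitted to all 36 arrays, with empirical Bayes moderation and Benjamini-Hochberg adjustment over 8129 and a threshold of 0.05. Its standard errors come from array residuals taken as independent, although each mouse enters 2 arrays. These residuals mix differences between the 2 mice of an age with array error. They are not a separate measure of the spread between mice. Within-loop values are least-squares levels of 1 mouse per age. The temporal Hotelling test was written from the study's equations (degree 2). The limma and Hotelling tests were run on simulated data with independent noise on each array. Such data could not show the effect of mice shared between arrays or of dye. For genes of lists with several oligonucleotides, the oligonucleotide whose log ratios were largest in mean size was used, and up to 4 called genes per list were named by smallest adjusted p. Other genes named were chosen after their values were seen. Likeness used oligonucleotides with 1 symbol whose 16 values varied at least as much as the median member. The members and lists were chosen with earlier results of these data known. Alternatives are given at the end.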

Additional observations from a re-analysis of the deposited data

How the results depend on the processing

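There were 2 mice per age and strain, and on 9 of 36 arrays the duplicate spots correlated under 0.3. Without 1 loop, the lone mouse of an age is assumed to vary like the other mice. Counts are members past the threshold. In the mean of the strains at 20 weeks 2 were called, against 0 without any 1 loop (lowest 0, highest 0), 1 with arrays centred on the median, with array weights or with first spots alone, and 0 with arrays scaled to the same spread, 1 value per animal, second spots alone, least squares without moderation or the second loop of each strain only, a setting chosen after seeing the data. Among all oligonucleotides 471 were called in that comparison, 114 to 461 without 1 loop, 173 with arrays scaled, 294 with 1 value per animal, 275 with first spots, 702 with both spots in a duplicate correlation fit and 0 with the second loops only, where fewer arrays were fitted. Over all settings the count ran from 0 to 373 in BSG (104 in the report), 0 to 471 in GSG (304), 0 to 456 over the mean of later ages (132), 0 to 667 over any later age (130) and 0 to 78 for 4 against 2.5 weeks (1). From 0 it reached 121 for 6 and 8 weeks in BSG with array weights, 13 in GSG without GSG loop 2, and 127 for the strain difference without BSG loop 2. Of the members in BSG 0 were called, against 2 with a dye term or with both spots and duplicateCorrelation, 1 with array weights and 0 to 1 without 1 loop (*Cd36*, 2.71 without BSG loop 2). In GSG 0 were called, and the range without 1 loop was 0 to 1 (*Acadl*, 2.27 without GSG loop 2), and for the strain difference it was 0 to 1 (*Cd36*, without BSG loop 2). Over any later age, both spots and duplicateCorrelation called 2, with 566 of all oligonucleotides called. In BSG all oligonucleotides called were 236 with a dye term, 373 with both spots and duplicateCorrelation and 336 with array weights. For all other settings, the counts over later ages, over the step from 2.5 to 4 weeks, over 6 and 8 weeks and in the temporal test and its 3 alternatives stayed at 0.

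Uncalled members changed direction. For *Cd36* the mean ran from -0.49 to 1.11 and BSG from -0.48 to 2.71 without 1 loop, and they were -0.44 and -0.48 with the second loops only. For *Acadl* the mean ran from -0.81 to 0.89 and GSG from -1.13 to 2.27, with -0.48 and -0.52 from first spots and -0.95 and -1.13 from the second loops only. *Cpt2* in GSG ran from -0.05 to 0.07, with -0.05 from first spots and from the second loops and -0.35 without arrays with discordant spots. *Acadvl* in GSG ran from -0.64 to 0.31. *Acadm* ran from -0.17 to 0.07 in the mean, -0.34 to 0.14 in BSG and -0.11 to 0.10 in GSG. It was 0.10, 0.05 and 0.15 from first spots, 0.01 (mean) and 0.08 (GSG) without discordant arrays, 0.01 (mean) and 0.14 (BSG) from the second loops and 0.00 in GSG with arrays scaled. The cause was not tested. No paired analysis was possible because a replicate number names a loop within 1 strain. Outside the members, *Fabp4* (0.14 in the mean of the strains) ran from -0.27 to 0.55 without 1 loop and was -0.03 without discordant arrays and -0.15 with the second loops only, and *Cav1* (-0.50) ran from -1.01 to 0.00 without 1 loop. The other 41 named genes kept their direction in these 16 settings, and 15 of the 29 that passed the threshold also passed it with arrays scaled.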
